A study of Saccharomyces cerevisiae with 17 samples.

Results

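FLAG chromatin immunoprecipitation (ChIP) signal of Brr6N was set against that of an empty vector at all 22 peaks of the deposited peak table, which are also all the peaks of the series. The rule fixed only the libraries and the ratio to be taken, not any value, so no peak was chosen or dropped here. The comparison uses 6 of the 17 libraries of the series, namely 2 Brr6N precipitates and their 1 total extract, and 2 empty-vector precipitates and their 1 total extract. A further construct, Brr6∆C4N, is used beside them to show where Brr6N differs. RNA libraries of a brr6-1 mutant and its wild type give a separate readout of the genes listed at the peaks.

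Per the labels, all ChIP cultures were the budding yeast strain W303, MATα, with the alleles his3-11,15, ade2-1, ura3-1, can1-100 and trp1-1, the state [phi+] and a leu2 mutation that the LEU2 marker of the plasmids complements. The Brr6N cells carried pJL602-PGAL-NLS-BRR6N (LEU2), a plasmid whose galactose-driven promoter makes a FLAG-tagged fragment of Brr6 with a nuclear localization signal and no membrane anchor. The Brr6∆C4N cells carried pJL602-PGAL-NLS-brr6∆C4N (LEU2), the same kind of fragment without the putative zinc finger. The control cells carried the plasmid pJL602-PGAL (LEU2) with no fragment. All cells kept their own BRR6 gene, and the signal is that of a soluble, overproduced fragment. Cultures grew in 2% raffinose with 0.04% sucrose, then overnight in 2% galactose with 0.04% sucrose, and were crosslinked for 15 min in 1% formaldehyde. DNA was recovered with M2 anti-FLAG beads, washed once with 500 mM NaCl. The labels do not say whether precipitates a and b came from separate cultures, so their spread may be technical.

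Brr6 is an essential membrane protein of the nuclear envelope that works with Brl1 and Apq12 in the building of nuclear pore complexes. Some yeast genes move to the nuclear periphery when they are switched on. ChIP of a tagged protein recovers the DNA crosslinked to it, and the vector cells, which have no FLAG tag, give the DNA that the beads hold without one. Haploid yeast cells come in the mating types a and α. The a-specific genes, among them STE2, MFA1, MFA2, BAR1 and STE6, are repressed in α cells. HMR is a silenced locus that holds a spare copy of the a mating-type genes, which MATa cells carry also at the active locus MAT and MATα cells do not.

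The values are mean read depth over a peak, scaled by the authors to a common library, and are called signal. A fold is the signal of 1 precipitate divided by that of the total extract of its own construct. The log2 ratio compares the folds of Brr6N with those of the vector. It comes from limma over all 22 peaks with n = 2 precipitates per construct, is given with its standard error, and counts as passed at a Benjamini-Hochberg adjusted p under 0.05. For a single peak, an exact two-sided permutation test of 2 against 2 precipitates cannot go below p = 0.333. Because each construct has 1 total extract, the error of that extract is outside the spread between precipitates. The maximum signal of a peak was a whole number of reads in every library, and the weakest peak still held 91 to 135 reads at its highest point in the 6 libraries, a counting error of 8.61 to 10.5%.

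The total extracts did not match at 3 peaks, and the labelled mating type needs a remark before the results. At HMR (chromosome III, 293560 to 294280, listed for HMRA1 and HMRA2) the total extract signal was 238 for Brr6N, 213 for Brr6∆C4N and 102 for the vector. At BRR6, whose sequence the Brr6N plasmid carries, it was 289 for Brr6N, 227 for Brr6∆C4N and 138 for the vector. At the Ty peak beside YML045W it was 177 for Brr6N, 114 for Brr6∆C4N and 107 for the vector. At the 18 peaks outside BRR6, HMR and the Ty elements, the ratio of the Brr6N extract to the vector extract lay between 0.790 and 1.18, with a median of 0.995. The labels give MATα for all 3 constructs, while the HMR signal of the vector extract stood apart from that of both fragment extracts. Whether the cultures differed in mating type or in copies of this segment was not tested, and with 1 vector strain it cannot be told apart from the construct. Counts are therefore also given without the peaks at BRR6, at HMR and at mating genes.

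**Figure D1:**
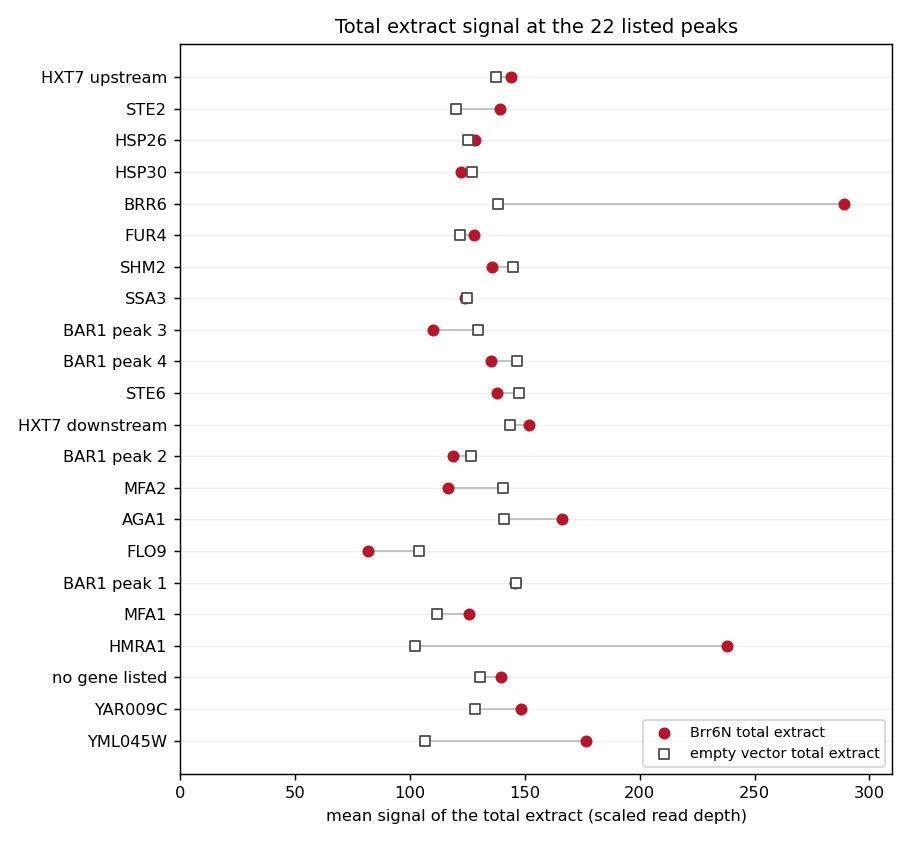
Mean signal of the total extract at each of the 22 peaks, for Brr6N (filled circles) and the empty vector (open squares), 1 library each. The Brr6N extract stood at 289 at BRR6 and 238 at HMRA1, against 138 and 102 in the vector extract, while most other pairs lie close together.

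Brr6N folds were higher than vector folds at 18 of the 22 peaks (81.8% of those tested) and lower at 2 (9.09%). At 19 peaks (86.4%) both Brr6N folds lay above both vector folds, and at the other 3 (13.6%) both lay below. The log2 ratio had a median of 1.17 and ran from -0.30 beside YML045W to 2.24 upstream of HXT7. At 7 peaks both Brr6N folds were over 2, and at 0 peaks both vector folds were. Median folds over the peaks were 1.58 and 1.48 in Brr6N precipitates a and b, against 0.702 and 0.705 in vector precipitates a and b. The labels and headers do not say how the authors chose the peaks, so the high share above the vector is a description of their list. Without the peaks at BRR6, HMR and mating genes, 8 of 11 were higher and 2 lower, with a median of 1.31. When the folds of each library were centred on their own median over the peaks, 7 were higher and 7 lower, since centring sets the typical peak to no difference.

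**Figure D2:**
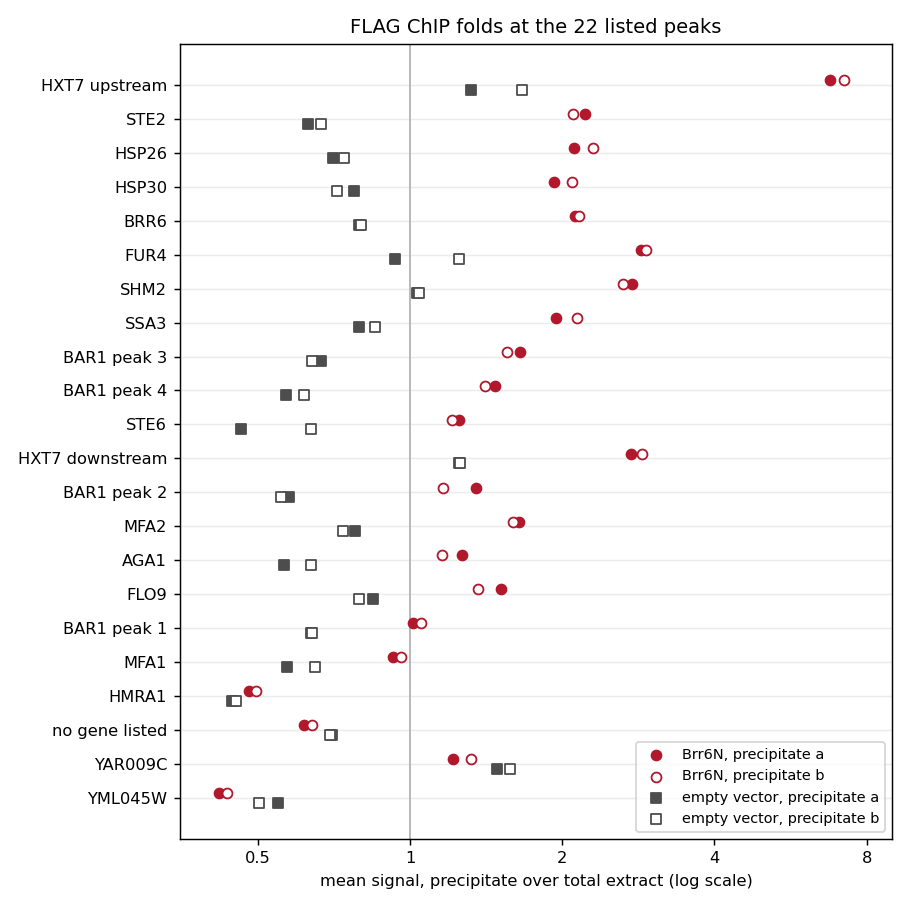
Fold of mean signal over the total extract (log axis) at the 22 peaks, in order of the ratio of Brr6N (circles) to the empty vector (squares), with precipitate a filled and b open. From the top down to HMRA1 both circles lie to the right of both squares, and at the 3 lowest peaks both lie to the left.

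The widest gap lay upstream of HXT7, which encodes a high-affinity hexose transporter. This peak, on chromosome IV from 1155680 to 1158740 (R64, as listed by the authors), is the longest at 3060 bp. Only 8.10% of it lies in a gene, the first 248 bp of HXT7, and it ends 868 bp short of the near-identical gene HXT6, so reads in the coding part may be split between the copies. The folds were 6.76 and 7.22 in Brr6N, 1.64 and 1.83 in Brr6∆C4N, and 1.32 and 1.66 in the vector. Both Brr6N values thus stand far above the other 4, which lie close to each other. The log2 ratio of Brr6N to vector was 2.24 ± 0.12 (adjusted p = 3.20e-06). Read by maximum in place of mean signal, it was 0.91 ± 0.13. The vector precipitates themselves had a narrow high point there, with maxima of 912 and 772 against 237 in the vector extract. Brr6N reached 1609 and 1779 against 254 in its extract, and Brr6∆C4N 1148 and 1019 against 241 in its own. A second peak on the other side of HXT7 (1153300 to 1154120) covers the space after its end and the start of YDR341C. It had folds of 2.74 and 2.87 in Brr6N, against 1.25 in each vector precipitate, a log2 ratio of 1.16 ± 0.06.

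The peaks at HSP26, HSP30 and SSA3 are long. There the Brr6N folds were over 1 while those of Brr6∆C4N and the vector were under 1. The same held at FLO9 and at peaks 1 and 2 of BAR1, counted from the start of that gene. None of HSP26, HSP30, SSA3 and FLO9 was on a gene list used here, and they are described together after their values were seen. HSP26 encodes a small heat-shock chaperone, and its peak on chromosome II (381820 to 383380) covers the whole reading frame and reaches into RDH54. Its folds were 2.11 and 2.30 in Brr6N, 0.813 and 0.743 in Brr6∆C4N, and 0.704 and 0.738 in the vector, and the log2 ratio to the vector was 1.61 ± 0.07 (adjusted p = 2.19e-06). HSP30, which encodes a stress-induced plasma membrane protein, had folds of 1.93 and 2.09 in Brr6N, 0.741 and 0.705 in Brr6∆C4N, and 0.773 and 0.717 in the vector. At HSP30 the Brr6∆C4N folds overlapped those of the vector and both Brr6N folds lay above them, with a log2 ratio to the vector of 1.43 ± 0.08. The peak (chromosome III, 154820 to 156900) begins within HSP30 and runs on past the end of that gene over all of HTL1 and MAK31. SSA3, an inducible Hsp70 chaperone, had folds of 1.94 and 2.14 in Brr6N, 0.765 and 0.785 in Brr6∆C4N, and 0.790 and 0.853 in the vector, and the log2 ratio to the vector was 1.31 ± 0.08. Its peak (chromosome II, 84140 to 86000) likewise lies over the later part of the gene and extends to ILS1.

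FUR4 and SHM2 serve the supply of nucleotide precursors. FUR4, the uracil permease, was the single gene with a peak among 13 genes of the galactose regulon list, on which it stands because it neighbours the GAL genes and responds to galactose. The folds at its peak (chromosome II, 282280 to 283780) were 2.86 and 2.92 in Brr6N, 1.22 and 1.37 in Brr6∆C4N, and 0.931 and 1.25 in the vector. Here the vector precipitates differed more than at most peaks, which shows in the larger standard error of the log2 ratio, 1.42 ± 0.13 (adjusted p = 4.68e-05). SHM2, the cytosolic serine hydroxymethyltransferase of one-carbon metabolism, has a peak over its later part that runs into the neighbouring end of MNL2 (chromosome XII, 257460 to 258920). Its folds were 2.74 and 2.64 in Brr6N, 1.01 and 1.06 in Brr6∆C4N, and 1.03 and 1.04 in the vector, and the log2 ratio to the vector was 1.38 ± 0.06. The replicates of each construct are close here and Brr6N alone stands apart. FLO9, a cell wall lectin of the flocculin family, had an 80 bp peak inside the gene with a smaller log2 ratio of 0.81 ± 0.08. That ratio became -0.31 (adjusted p = 0.0131) with centred folds and 0.47 ± 0.08 undivided. The Brr6N extract stood at 82.0 there, against 104 in the vector extract. Other FLO genes resemble FLO9 closely, so its reads may be shared.

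The a-specific genes formed the other large set, with 8 peaks at 5 of the 6 genes of that list, while AGA2 had none. Of the 6477 genes of the R64 table, 30 (0.463%) were listed at a peak. All 8 a-specific peaks, 4 of them in BAR1, were higher in Brr6N than in the vector, against 81.8% of all peaks, with a median log2 ratio of 1.16. When each library was centred on its median over the peaks, 1 of the 8 was higher, at STE2, and 2 were lower, at MFA1 and the first peak of BAR1. The 4 genes of the α-specific list and the 13 of the phosphate list had no peak, and the mating list as a whole had a peak at 6 of its 37 genes, the sixth being AGA1. STE2, the receptor for α-factor, has the strongest of these peaks, over the entire gene (chromosome VI, 82400 to 84200). Its folds were 2.22 and 2.10 in Brr6N, 2.24 and 2.78 in Brr6∆C4N, and 0.626 and 0.667 in the vector, with a log2 ratio to the vector of 1.74 ± 0.07 (adjusted p = 2.19e-06). Both fragments lay above the vector at STE2, and their log2 ratio to each other did not pass (-0.21 ± 0.12, adjusted p = 0.143). BAR1, the secreted protease that degrades α-factor, holds 4 separate peaks of 40 to 320 bp on chromosome IX between 322500 and 323820, which are not independent of each other. Their log2 ratios ran from 0.69 ± 0.06 at the one nearest the start of the gene to 1.29 ± 0.07. STE6, the exporter of a-factor, and the a-factor gene MFA1 had log2 ratios of 1.18 ± 0.14 and 0.63 ± 0.08. At MFA2, the other a-factor gene, the folds were 1.64 and 1.60 in Brr6N, 1.43 and 1.93 in Brr6∆C4N, and 0.777 and 0.736 in the vector. AGA1, the anchor of the agglutinin of a cells, had 1.01 ± 0.09. The total extracts were nearly even at these genes, with a ratio of Brr6N to vector of 1.16 at STE2 and 0.829 at MFA2. Even extracts at these genes cannot show whether the cultures matched in mating type, which was not tested.

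The BRR6 peak needs its own reading, since the plasmid adds copies of part of the gene. It spans 36720 to 37620 of chromosome VII, covers all of BRR6 and touches the ends of PDE1 and RAI1. The signal before division was 613 and 622 in the Brr6N precipitates, against 110 in each vector precipitate. Division by the extracts gave folds of 2.12 and 2.15 in Brr6N, 3.47 and 3.19 in Brr6∆C4N, and 0.793 and 0.798 in the vector. The log2 ratio of Brr6N to vector was 1.43 ± 0.06 (adjusted p = 2.19e-06), and 2.49 ± 0.06 when the signal was not divided. Chromosomal and plasmid copies cannot be told apart in these values.

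The peaks at HMR, at Ty elements and away from genes did not pass as higher in Brr6N once divided by the extract. HMR had folds of 0.479 and 0.495 in Brr6N, 0.407 and 0.532 in Brr6∆C4N, and 0.445 and 0.452 in the vector, and the log2 ratio of 0.12 ± 0.06 did not pass (adjusted p = 0.108). Undivided, the same peak had 1.34 (adjusted p = 2.57e-06), and the Brr6N extract itself stood at 2.33 times the vector extract there. The peak with no gene listed, on chromosome XV (908440 to 908580) between YOR316C-A and FAA1, had folds of 0.617 and 0.638 in Brr6N, against 0.700 and 0.693 in the vector (-0.15 ± 0.06, adjusted p = 0.0539). A peak in YAR009C, a gene of a Ty retrotransposon on chromosome I (163800 to 163920), had folds of 1.22 and 1.32 in Brr6N, against 1.48 and 1.57 in the vector. It passed as lower (-0.27 ± 0.07, adjusted p = 0.0106) but no longer did so with maximum signal (-0.11, adjusted p = 0.444), undivided (-0.06, adjusted p = 0.441) or without Brr6N precipitate a (adjusted p = 0.0791). The peak beside YML045W, also of a Ty element (chromosome XIII, 184240 to 184380), had folds of 0.419 and 0.433 in Brr6N, against 0.548 and 0.503 in the vector (-0.30 ± 0.07, adjusted p = 5.99e-03). It turned to 0.43 (adjusted p = 9.62e-04) when the signal was not divided, and it lost its call without Brr6N precipitate a (adjusted p = 0.0642). Ty elements are present in many near-identical copies, so reads there are uncertain.

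**Figure D3:**
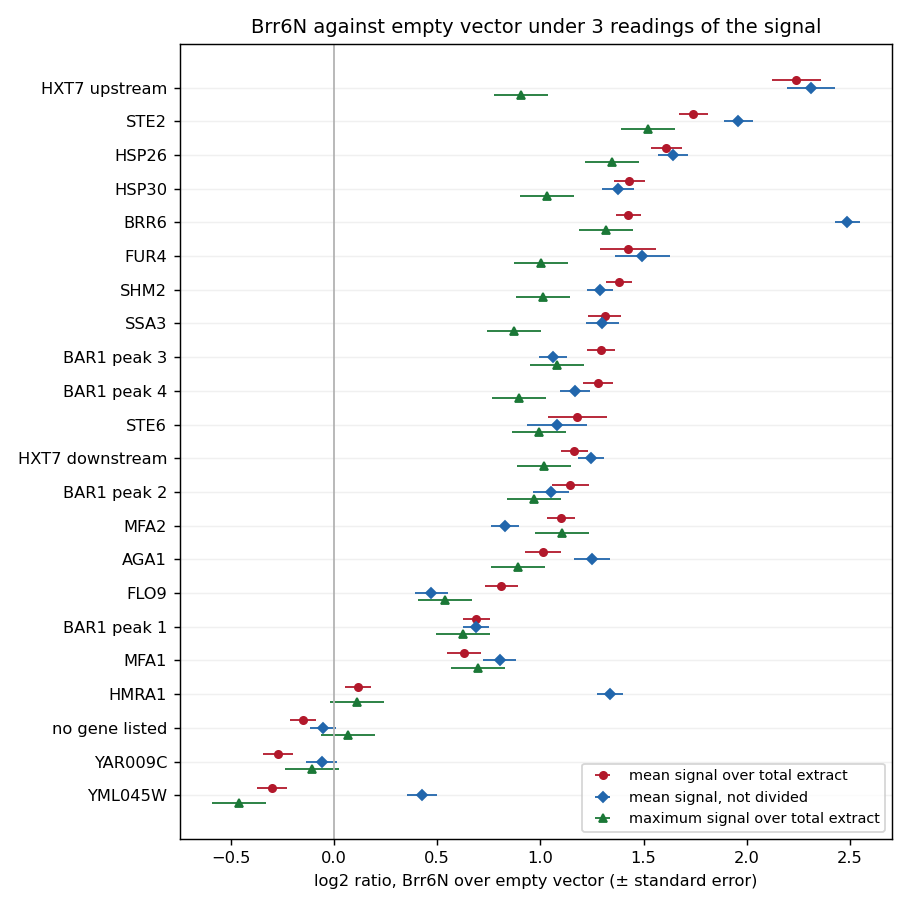
Log2 ratio of Brr6N to empty vector ± standard error (n = 2 precipitates each) at the 22 peaks, from the mean signal over the total extract (circles), the undivided mean signal (diamonds) and the maximum signal over the total extract (triangles). The readings part most upstream of HXT7 (2.24 by mean and 0.91 by maximum), at BRR6 (1.43 divided and 2.49 undivided), at HMRA1 (0.12 divided and 1.34 undivided) and beside YML045W (-0.30 divided and 0.43 undivided).

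Set against the fragment without the zinc finger, Brr6N was higher at 10 of the 22 peaks (45.5%) and lower at 2 (9.09%), in a limma fit of all 6 precipitates. This comparison uses the same Brr6N libraries as the one with the vector, so the 2 are not independent. At 12 peaks (54.5%) both Brr6∆C4N folds lay above both vector folds. They were the 8 a-specific peaks and those at AGA1, BRR6, HSP26 and downstream of HXT7. Of the 8 peaks at HXT7, HSP26, HSP30, SSA3, FUR4, SHM2 and FLO9, all 8 were higher in Brr6N than in Brr6∆C4N, with a median log2 ratio of 1.39. The values were 2.01 ± 0.12 upstream and 0.79 ± 0.14 downstream of HXT7, 1.50 ± 0.09 at HSP26, 1.47 ± 0.09 at HSP30, 1.39 ± 0.09 at SSA3 and 1.38 ± 0.09 at SHM2. FUR4 had 1.16 ± 0.14 and FLO9 0.95 ± 0.09. Upstream of HXT7 the gap was narrower by maximum signal, with folds of 6.33 and 6.99 in Brr6N against 4.77 and 4.23 in Brr6∆C4N. Of the 8 peaks at a-specific genes, 2 were higher, both in BAR1 (0.44 ± 0.11 and 0.49 ± 0.09), and the median was 0.09. At BAR1 the lower of these values did not pass without Brr6N precipitate a (adjusted p = 0.0740), and the higher did not with maximum signal (adjusted p = 0.0716).

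Among the a-specific peaks that did not pass, the 95% interval of the log2 ratio of Brr6N to Brr6∆C4N ran from -0.48 to 0.06 at STE2, from -0.57 to 0.07 at STE6, from -0.35 to 0.28 at MFA2 and from -0.34 to 0.23 at MFA1. At these 4 genes a gain in Brr6N of the size seen at HSP26, HSP30 and SSA3 lies outside the interval. In BAR1, peaks 1 and 4 from the start of the gene did not pass either (adjusted p = 0.0615 and 0.0700). Their intervals leaned to Brr6N, from 0.017 to 0.402 and from 0.007 to 0.449. The intervals hold only the spread between precipitates, not the error of the single total extract of each construct. STE2 was lower in Brr6N without Brr6∆C4N precipitate a (-0.37, adjusted p = 8.92e-03), as was MFA2 (-0.26, adjusted p = 0.0298). BRR6 was lower in Brr6N by a log2 ratio of -0.64 ± 0.09 (adjusted p = 1.87e-04). The peak beside YML045W was lower at -0.56 ± 0.14, a value that became 0.08 without division by the extract.

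**Figure D4:**
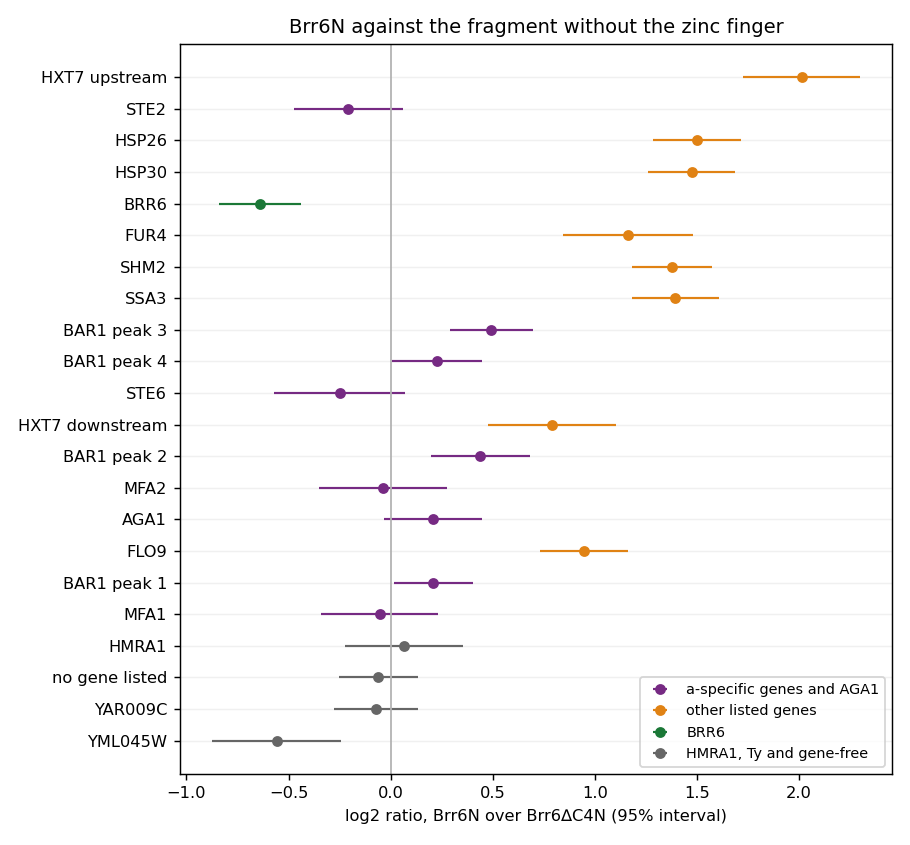
Log2 ratio of Brr6N to Brr6∆C4N with its 95% interval at the 22 peaks, coloured by the kind of gene. All 8 peaks of the other listed genes (HXT7, HSP26, HSP30, SSA3, FUR4, SHM2 and FLO9) lie above 0, between 0.79 and 2.01, while those of the a-specific genes and AGA1 lie between -0.25 and 0.49.

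The peaks also differ in shape and place. They lie on 12 chromosomes and run from 40 to 3060 bp with a median of 270 bp, 10 of them of at least 700 bp and 12 under 400 bp. All of the peaks at HXT7, HSP26, HSP30, SSA3, FUR4 and SHM2 belong to the long group. So do those at BRR6, at HMR and at the a-specific gene STE2, the last with 1800 bp. The peaks at BAR1, STE6, MFA1, MFA2, AGA1 and FLO9, at Ty elements and with no gene listed belong to the short one. In the gene table of R64, the median share of a peak inside genes was 74.5%, 8 peaks lay wholly within genes, and 11 held the start of a gene. The peaks at HSP30, SSA3, FUR4 and SHM2 lie over the later part of the gene and the sequence after it, while those at STE2, HSP26 and BRR6 span the whole reading frame. No genome sequence was used here, so no sequence is shown.

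**Figure D5:**
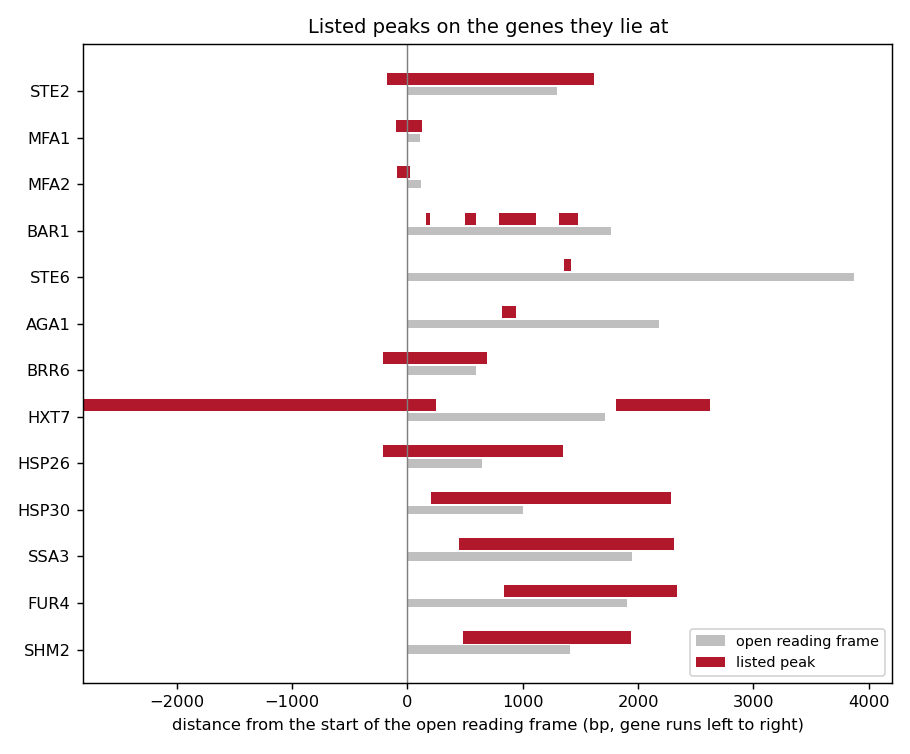
Listed peaks (red) on the reading frames of the genes they lie at (grey), by distance in bp from the start of the frame, with every gene drawn left to right. The HXT7 row holds both of its peaks, 1 ahead of the gene and 1 after it, and the BAR1 row holds 4 short peaks inside the gene.

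RNA of the listed genes was read in other cells. WT is YPH399, MATα with Trp1-63, ura3-52, leu2-1, lys2-801 and ade2-10, and the mutant yDBK168 has the same background with brr6-1:LEU2:HIS3, an arginine-to-lysine change in the putative zinc finger. Each had 2 biological replicates, with 2 h in galactose where the ChIP cultures had a night. Of 30 listed genes, 25 could be tested by edgeR, and 9 changed between brr6-1 and WT, against 22.6% of all 6297 genes tested. Of these, 6 were higher and 3 lower in brr6-1, against 8.29% higher and 14.3% lower among all genes. Both MAK31 and HTL1, at the HSP30 peak, were among the higher ones (1.17 ± 0.23 and 1.04 ± 0.14). They lie on chromosome III, where 137 of 176 tested genes were higher in brr6-1 and the median log2 change was 1.03, against 0.00 on the other chromosomes. The 3 genes at the BRR6 peak were also higher. Off chromosome III and that peak, 18 listed genes remained to be read, of which 1 was higher and 3 lower. These counts lie near the shares among all genes tested, 8.29% higher and 14.3% lower.

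The higher one was FUR4, with 339 and 386 CPM (read counts per library of equal effective size) in brr6-1, against 103 and 90.3 CPM in WT (1.90 ± 0.16, adjusted p = 5.26e-05). HSP26 fell to 18.6 and 12.6 CPM in brr6-1, against 151 and 221 CPM in WT (-3.57 ± 0.26, adjusted p = 2.66e-05). HXT7 fell to 12.1 and 9.32 CPM in brr6-1, against 55.6 and 39.2 CPM in WT (-2.15 ± 0.21, adjusted p = 1.22e-04). For all 3 the libraries of the strains lie far apart, though reads of HXT7 may be shared with HXT6. SHM2 stood at 55.8 and 54.3 CPM in brr6-1, against 124 and 135 CPM in WT (-1.23 ± 0.25, adjusted p = 7.57e-03), and no longer passed without brr6-1 replicate A (adjusted p = 0.0665) or B (adjusted p = 0.0536). HSP30 and SSA3 did not pass (-0.31 ± 0.25, adjusted p = 0.390, and 0.37 ± 0.13, adjusted p = 0.0584). SSA3 passed with the replicate letter as a block (0.37, adjusted p = 0.0418) and without WT replicate A (0.49, adjusted p = 0.0290). Of the a-specific genes, STE2 had 7.58 and 6.40 CPM in brr6-1, against 8.07 and 7.69 CPM in WT (-0.17 ± 0.19, adjusted p = 0.534). MFA1 had 2.13 and 1.16 CPM in brr6-1, against 0.453 and 0.671 CPM in WT. Its change did not pass (1.54 ± 0.51, adjusted p = 0.0516), but did without the filter on low counts (adjusted p = 0.0474). It rests on few reads, 41 and 23 in brr6-1 against 10 and 13 in WT. BAR1 did not pass (0.81 ± 0.28, adjusted p = 0.0624). Its change was 1.01 without WT galactose replicate A and 0.63 without WT galactose replicate B. Per kb of gene, WT levels of the a-specific STE6, STE2, MFA1, BAR1, AGA2 and MFA2 stood at the 26.2, 12.3, 10.8, 3.70, 3.27 and 2.12 percentiles of 5757 genes. The α-specific MF(ALPHA)1, STE3, MF(ALPHA)2 and SAG1 stood at the 87.0, 60.05, 33.5 and 10.9 percentiles, so the 2 lists overlap. These levels are those of YPH399 and say nothing of the W303 cultures. In these bulk cultures, fewer cells with a transcript and less of it per cell cannot be told apart.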

How the data were processed

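The ChIP table the authors deposited gives mean and maximum signal at each peak for 9 libraries, for which the submitters' processing notes name Bowtie 1.1.2, cutadapt and the R64 build. Its header calls them RPKM and RPM, but they behave as scaled read depth (maxima are whole multiples of 1 read within 0.02 reads). For the peak caller and pooling, nothing was found in labels or headers. The 6 deposited columns of the authors' own fold per sample were not used. Deposited RNA counts are raw reads per gene, made by the authors with cutadapt, TopHat and HTSeq, per the submitters' processing notes, with 15059271 to 21637381 counts in genes per library. Alignments that were not unique made up 53.5 to 65.3% of HTSeq lines and reads outside genes 9.89 to 17.3%, and these lines were left out.

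Folds were precipitate over total extract of the same construct, tested on the log2 scale with limma 3.58.1 (R 4.3.3) and no value added. Brr6N against vector used 4 precipitates, and Brr6N against Brr6∆C4N all 6. RNA was tested with edgeR 4.0.16 (TMM, filterByExpr with a minimum count of 10, quasi-likelihood, all 8 libraries, 4 residual degrees of freedom). Both tests were tested on simulated data. Other software was matplotlib 3.10.9, numpy 2.4.6 and pandas 2.3.3 under Python 3.11.15. All 30 listed gene IDs matched the R64 gene table, and 27 had RNA counts. Library values are given for the 8 peaks with the highest ratio to the vector, the 3 lowest and any on plasmid sequence; HMR and other peaks were named after their values were seen. The members, gene lists and tests were chosen with earlier results of these data known. Alternatives were maximum signal, no division, the mean of 3 extracts as divisor, 1 signal unit added, centring, a threshold of 0.01, other limma settings, a replicate block, DESeq2 1.42.0 for RNA, and each precipitate or library left out. Counts without some peaks were added after the data were seen. The planned motif counts were not made, since no sequence was used here. The labels of the ChIP libraries give differing numbers of biological replicates.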

Additional observations from a re-analysis of the deposited data

Results flagged for a closer look

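At 12 peaks the ratio to the vector differed between Brr6N and Brr6∆C4N, by the limma test of the difference itself. By mean signal, the log2 difference was 2.01 upstream and 0.793 downstream of HXT7, 1.5 at HSP26, 1.47 at HSP30 and 1.39 at SSA3. It was 1.38 at SHM2, 1.16 at FUR4 and 0.95 at FLO9, and all of these were higher in Brr6N. In BAR1 it was 0.44 and 0.494 at peaks 2 and 3 counted from the start of the gene. It was -0.639 at BRR6 and -0.557 beside YML045W, both lower in Brr6N.

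The total extracts, which enter the comparisons only as divisors, carried a difference of their own at 3 peaks. The signal of the Brr6N extract was 2.33 times that of the vector extract at HMRA1, 2.09 times at BRR6 and 1.66 times beside YML045W. There is 1 extract per construct, so these ratios have no replicate check and no test.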

How the results depend on the processing

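With folds centred on each library's median, 7 peaks were higher and 7 lower in Brr6N than in the vector. The log2 ratio then turned to -0.488 at MFA1, -0.427 at the first peak of BAR1, -0.307 at FLO9, -0.999 at HMRA1, -0.103 at AGA1 and -0.0178 at MFA2, and 6 further peaks lost and 1 gained a call. Without the peaks at BRR6, HMR and mating genes (chosen after seeing the data), 10 peaks were called, 8 of them higher, 8 had both Brr6N folds above both vector folds, and the median log2 ratio was 1.31. The median was 0.94 with maximum signal and 1.28 without the Ty and gene-free peaks (also chosen after seeing the data). The log2 ratio to the vector beside YML045W turned to 0.427 undivided, and its ratio to Brr6∆C4N to 0.0791. The mean of the 3 extracts as divisor gave the same 0.427, because a shared divisor cancels, so it is no separate check. The divisor changed there, and no other cause was tested. The peak beside YML045W also lost its call to the vector with all 6 precipitates in 1 fit (adjusted p = 0.0656). Undivided, 20 peaks were higher and 0 lower. Leaving out 1 precipitate gave 18 to 20 calls against the vector with 18 higher each time, 19 peaks with no overlap upward and a median of 1.17 to 1.22. Against Brr6∆C4N it gave 11 to 15 calls, 9 to 12 of them higher, and for RNA 8 to 13 genes, 13 of them without WT galactose replicate A.

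The letters a and b were not shown to pair the precipitates: same-letter deviations correlated at r = 0.115 over the 22 peaks, with 2 pairs. With the replicate block, 20 peaks were called against the vector, 12 against Brr6∆C4N and 10 RNA genes. Over single peaks and all alternatives but centring, 325 values against the vector kept direction and call, 3 gained a call, 7 lost it and 2 reversed. This tally holds the undivided fit under 2 names, because the mean of the 3 extracts as divisor repeats it. The single total extract per construct and 2 precipitates limit every ratio.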
